A study of Mus musculus with 9 samples.

Results

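Slc38a4 encodes a sodium-coupled carrier of neutral amino acids. It is described here beside 9 other genes of amino acid transport in mouse tibialis anterior, a fast muscle of the lower leg. The 10 genes are Slc38a4, Slc38a2, Slc38a3, Slc38a10, Slc7a1, Slc7a2, Slc7a5, Slc7a8, Slc3a2 and Slc1a5, taken by gene symbol from the 14300 genes that both deposited tables of normalised counts hold. Slc38a4 was picked because its values in these libraries were low after castration and high with androgen, so its values are a description and carry no test. The other 9 were picked as carriers, with earlier results of these data known.

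The study sequenced polyA RNA of the tibialis anterior from male mice of the C57BL/6J strain, with 3 libraries in each of 3 groups, 4 weeks after treatment. Control mice form the first group, whose table columns are named Sham. The second group was orchiectomised (ORX), which removes the testes and with them most circulating androgen. The third was orchiectomised and given dihydrotestosterone (ORX+DHT), a ligand of the androgen receptor that aromatase does not turn into an oestrogen. The labels used here give no dose, route or age, and no altered allele in any group. They call the libraries biological replicates without naming separate animals, so p-values measure the spread between these libraries. One table holds control and ORX, the other holds the same ORX libraries with ORX+DHT, so the comparisons share libraries and their values are set side by side only.

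Muscle fibres take up amino acids through carriers of several families. The sodium-coupled Slc38 carriers bring small neutral amino acids such as alanine and glutamine into the cell, and Slc38a2 is known to be induced when amino acids run short. Slc7a5 and Slc7a8 are the light chains that, joined to the heavy chain Slc3a2, exchange glutamine and other amino acids for leucine and its relatives. Slc7a1 and Slc7a2 carry arginine and lysine, and Slc1a5 exchanges neutral amino acids.

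Slc38a4 (ENSMUSG00000022464) and Slc38a2 (ENSMUSG00000022462) are neighbours on the minus strand of chromosome 15 in build GRCm38, at chr15:96994820-97055956 and chr15:96687392-96699730. Their starts lie 356 kb apart. The 250 bases upstream of each start that RefSeq gives for these genes (GRCm38.p6, minus strand, read 5′ to 3′) are shown because these 2 members had the largest log2 fold changes of the 8 members above the filter on low values in ORX+DHT against ORX. The windows are chr15:97055957-97056206, chr15:97031214-97031463 and chr15:97020360-97020609 for the 3 starts of Slc38a4 and chr15:96699729-96699978 for Slc38a2. Capitals mark a match, on either strand, to AGAACA, the half-site of the androgen receptor.
Slc38a4 window 1: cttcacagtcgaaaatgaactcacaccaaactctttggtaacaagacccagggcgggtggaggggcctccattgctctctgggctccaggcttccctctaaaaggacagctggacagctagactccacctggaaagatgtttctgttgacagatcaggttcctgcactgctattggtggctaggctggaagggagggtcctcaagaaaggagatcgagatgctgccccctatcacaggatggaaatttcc
Slc38a4 window 2: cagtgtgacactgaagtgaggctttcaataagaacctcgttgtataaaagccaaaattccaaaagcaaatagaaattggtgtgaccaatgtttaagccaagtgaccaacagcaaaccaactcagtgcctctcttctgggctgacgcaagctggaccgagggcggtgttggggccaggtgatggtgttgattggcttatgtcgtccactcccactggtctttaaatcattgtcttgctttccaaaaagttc
Slc38a4 window 3: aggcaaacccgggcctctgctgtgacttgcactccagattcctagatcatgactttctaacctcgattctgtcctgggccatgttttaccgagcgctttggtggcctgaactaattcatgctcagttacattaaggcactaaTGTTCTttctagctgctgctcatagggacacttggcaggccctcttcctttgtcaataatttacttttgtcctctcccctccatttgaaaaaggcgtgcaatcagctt
Slc38a2 window 1: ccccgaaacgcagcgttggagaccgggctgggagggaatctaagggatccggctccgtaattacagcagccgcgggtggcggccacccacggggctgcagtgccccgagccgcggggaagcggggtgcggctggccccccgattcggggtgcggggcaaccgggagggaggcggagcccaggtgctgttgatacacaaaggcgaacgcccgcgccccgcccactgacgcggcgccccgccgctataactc

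The half-site occurred once in these windows, on the opposite strand at the third start of Slc38a4. The base of the match farthest from that start lies 108 bases upstream. RefSeq windows were found for 6 of the 10 members, 9 windows in all, and Slc7a1 held the only other half-site. The same 6 letters occurred in 16.1% of 32851 windows of this length upstream of the starts of all genes in that RefSeq set. The full palindrome, the half-site followed after any 3 bases by its reverse complement, occurred in 0.00913% of windows, and TGATGNAA, the core of the element through which amino acid shortage acts on genes, in 3.45%; no member window held either. The Slc38a2 window was 72.0% G and C, against 52.8%, 46.0% and 47.2% in the 3 windows of Slc38a4. A match is only a match of letters, and the absence of one says nothing of a factor elsewhere at the gene.

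The libraries held 1340209 to 1682235 reads over genes, recovered from the normalised values, and 12398 to 13000 genes with a read. Control library 1 stood apart. On the first principal component of 8631 genes, which carried 30.7% of the variance, it lay at -47.2 while the other 8 libraries lay between 0.716 and 10.6. All 7 markers of muscle fibres were present in every library, and their summed level was 244780 to 290563 normalised counts in controls, 197668 to 211687 in the ORX libraries and 221904 to 239861 in ORX+DHT. The 6 fibroblast markers summed to 1374 to 2759 in controls, 2912 to 3902 in the ORX libraries and 1731 to 2440 in ORX+DHT, and the 5 Schwann cell markers to 140 to 147, 189 to 214 and 142 to 193. The 5 adipocyte markers summed to 28 counts or fewer in every library and each was at 0 in some library. Fibre markers were thus lowest, and fibroblast markers highest, in the ORX libraries, the group where Slc38a4 was also lowest; their part in any result was not tested.

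Slc38a4 was lowest in every ORX library and highest in every ORX+DHT library. On a scale joint to all 9 libraries it stood at 225, 275 and 216 normalised counts in control libraries 1, 2 and 3, at 95.2, 139 and 103 in ORX, and at 370, 421 and 360 in ORX+DHT. No library of any group overlapped another group. These values rest on 97 to 435 reads per library. The group means were 239 ± 32.2, 113 ± 23.3 and 383 ± 32.6 (SD, n = 3 each). The control mean was 2.12 times the ORX mean, the ORX+DHT mean was 3.41 times the ORX mean, and the ORX+DHT mean was 1.61 times the control mean. In bulk muscle RNA, fewer cells of a type and less RNA per cell cannot be told apart, here and for every gene below.

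On the log2(value + 1) scale the differences in Slc38a4 were -1.09 for ORX against control, 1.78 for ORX+DHT against ORX and 0.69 for ORX+DHT against control. Without control library 1 the first was -1.13 and the last 0.65. Leaving out each library in turn moved the 3 differences within -1.25 to -0.98, 1.67 to 1.94 and 0.62 to 0.79. The level with dihydrotestosterone lay above that of the control libraries as well as above ORX in each of these settings. Slc38a4 was chosen on its values in these same libraries, so these ranges are a description and no independent support.

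**Figure D1:**
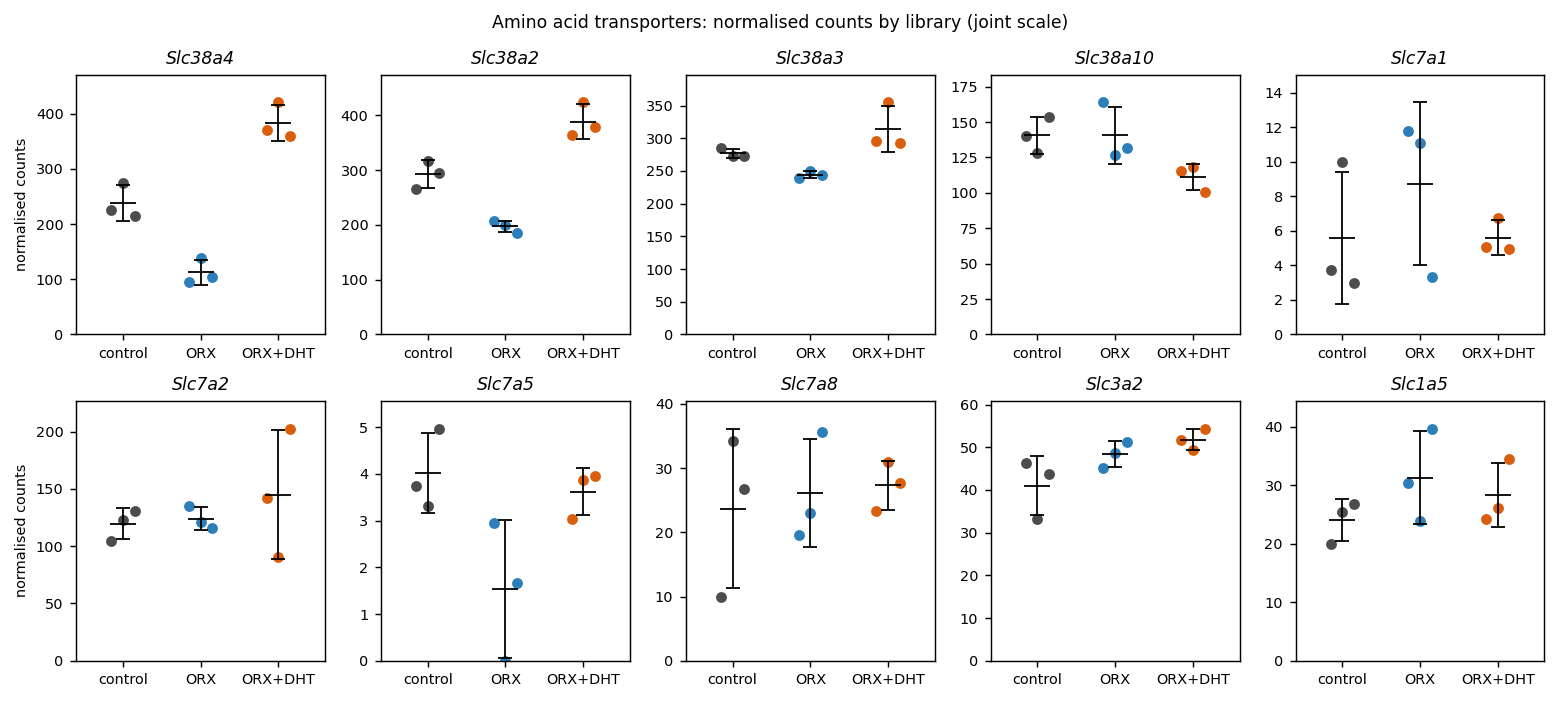
Normalised counts of the 10 transporters in each library on the joint scale (vertical axes start at 0 and differ between panels), with points for libraries and bars for the group mean ± SD (n = 3). Slc38a4 and Slc38a2 stand lowest in the ORX libraries and highest in the ORX+DHT libraries, with no overlap between groups, while Slc7a8 and Slc1a5 overlap in every pair of groups.

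Slc38a2, the broadly expressed carrier that shares its substrates with Slc38a4, rose with dihydrotestosterone. Its normalised counts were 266, 317 and 295 in control libraries, 206, 200 and 185 in ORX and 364, 423 and 378 in ORX+DHT. The 3 groups were ordered as for Slc38a4, again with no overlap. The ORX+DHT mean was 1.97 times the ORX mean, a log2 difference of 0.98 (SE 0.10, 95% interval 0.77 to 1.18, limma adjusted p = 3.2e-06). Slc38a2 passed the test in all 16 alternative analyses of that comparison.

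After castration alone Slc38a2 did not pass the test. Its mean was 293 ± 25.8 normalised counts in controls and 197 ± 10.7 in ORX, a log2 difference of -0.57 (SE 0.14, 95% interval -0.88 to -0.25) with a limma adjusted p of 0.333. Without control library 1, the library that stood apart, the log2 difference was -0.63 and the limma adjusted p 0.0169. The call therefore turned on that library. Between ORX+DHT and control, Slc38a2 differed by 0.41 on the log2 scale (95% interval 0.10 to 0.71, limma adjusted p = 0.736).

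Slc38a3, a carrier of glutamine, histidine and asparagine, showed the same order of groups over a narrower range. Its normalised counts were 285, 273 and 273 in controls, 240, 250 and 244 in ORX and 296, 355 and 292 in ORX+DHT. No group overlapped another, but the log2 difference of 0.36 between ORX+DHT and ORX (SE 0.10, 95% interval 0.15 to 0.56) missed the threshold at a limma adjusted p of 0.0508. It passed with a pseudocount of 10 (limma adjusted p = 0.0465) and with a minimum mean of 50 (limma adjusted p = 0.0378). Castration alone gave a log2 difference of -0.18 (95% interval -0.47 to 0.11, limma adjusted p = 0.788).

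Slc38a10, a less studied carrier of the family, lay the other way. Its normalised counts were 140, 128 and 154 in controls, 164, 127 and 132 in ORX and 116, 118 and 101 in ORX+DHT. The 3 ORX+DHT libraries were below all 6 others, while control and ORX libraries overlapped and had the same mean of 141. The log2 difference of -0.33 between ORX+DHT and ORX did not pass (95% interval -0.60 to -0.06, limma adjusted p = 0.204). Exons of a transcript on the opposite strand, Gm11769, overlap its own, and whether the counting used the strand is not given in the sources used here.

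Among the cationic carriers, Slc7a2 stood at 105 to 131 normalised counts in the controls, 116 to 135 in the ORX libraries and 90.9 to 203 in ORX+DHT. The ORX+DHT libraries spread over more than the whole range of the other 6, and the log2 difference from ORX was 0.15 (95% interval -0.26 to 0.57, limma adjusted p = 0.793). Exons of the noncoding gene Gm26584 overlap Slc7a2 on the opposite strand. Slc7a1, the other arginine carrier, had only 3 to 13 reads per library and was below the minimum mean of 10 for a test.

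The heavy chain Slc3a2 stood at 33.2 to 46.2 normalised counts in controls, 45.2 to 51.3 in the ORX libraries and 49.3 to 54.3 in ORX+DHT. Its log2 difference between ORX+DHT and ORX was 0.10 (95% interval -0.23 to 0.42, limma adjusted p = 0.838). Its partner Slc7a8 ranged from 9.99 to 35.6 across the libraries, and the lowest value was that of control library 1. For Slc7a8 the interval of the difference between ORX+DHT and ORX ran from -0.40 to 0.60. The other light chain, Slc7a5, had 0 to 5 reads per library and was not tested; the library without a read, ORX replicate 2, allows up to 3. With no minimum mean, neither Slc7a5 nor Slc7a1 was called in ORX+DHT against ORX, at log2 differences of 1.10 and -0.42 (limma adjusted p = 0.439 and 0.816).

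Slc1a5 stood at 19.98 to 26.8 normalised counts in controls, 23.9 to 39.7 in the ORX libraries and 24.3 to 34.6 in ORX+DHT. Its log2 difference was 0.35 for ORX against control (95% interval -0.20 to 0.90, limma adjusted p = 0.779) and -0.13 for ORX+DHT against ORX (95% interval -0.60 to 0.35, limma adjusted p = 0.859). The Slc1a5 libraries of all 3 groups overlapped.

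Counted over the 9 members other than Slc38a4, 7 passed the filter on low values in each comparison. For ORX against control limma called 0 of them, with 1 at an unadjusted p under 0.05, and edgeR and DESeq2 on the recovered reads also called 0; of all 8631 genes tested 0.0579% were called. For ORX+DHT against ORX limma called 1, Slc38a2, where 4.08% of 8770 genes were called. For ORX+DHT against control limma, edgeR and DESeq2 each called 0, with 1 at an unadjusted p under 0.05 in limma, and 0.0349% of 8595 genes were called. The number of these 7 whose groups did not overlap was 2, 3 and 4 in that order, beside 14.3%, 19.5% and 14% of all genes tested. The median log2 difference of the 7 was 0.06, 0.10 and 0.22, against -0.01, 0.01 and -0.01 over all genes tested.

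**Figure D2:**
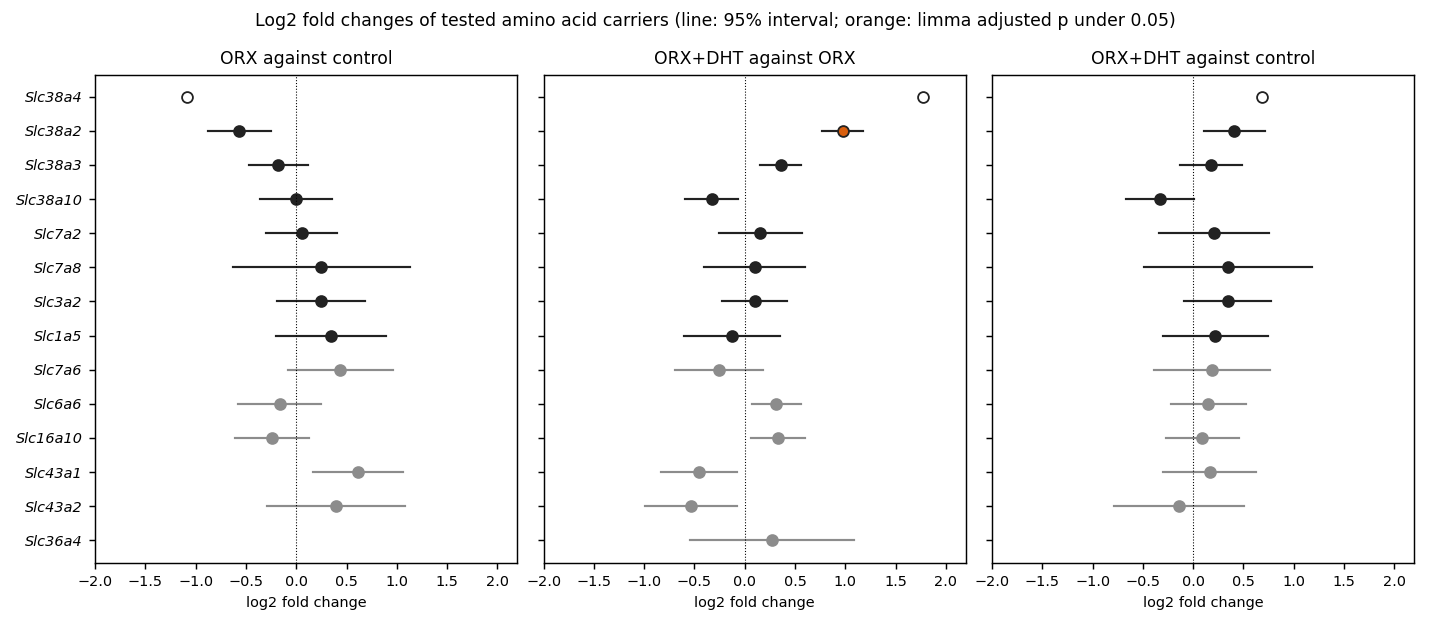
Log2 fold changes of the tested amino acid carriers in the 3 comparisons, with 95% intervals from limma as lines, members in black and other carriers in grey. Slc38a4 is an open circle without an interval because it was chosen on these values, and Slc38a2 in ORX+DHT against ORX (0.98) is the only filled point in orange, the mark of a limma adjusted p under 0.05.

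Levels of different genes were compared per kilobase of exon, using the union of each gene's annotated exons. That union covers 8838 of the 12339 bases of Slc38a2 and 4261 of the 61137 bases of Slc38a4, and a long union lowers the level per kb. Before division the control means of Slc38a2 (293) and Slc38a3 (277) were above that of Slc38a4 (239). The order of genes and their shares below thus depend on this divisor. Slc38a4 had the highest level of the 10 in controls, 56.0 ± 7.55 normalised counts per kb, close to 52.5 ± 1.27 for Slc38a3, and these neighbours overlapped. Slc38a2 followed at 33.1 ± 2.91 and Slc38a10 at 21.9 ± 2.003 per kb. Slc7a2 (13.1) and Slc3a2 (11.6) overlapped, as did Slc1a5 (5.77) and Slc7a8 (4.73), and Slc7a5 (1.08) and Slc7a1 (0.482) were lowest.

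In ORX the order at the top was different. Slc38a3 led with 46.3 ± 0.987 per kb, and Slc38a4 lay at 26.4 ± 5.47, where its libraries overlapped with those of Slc38a2 (22.3 ± 1.21) and Slc38a10 (21.9 ± 3.13). In ORX+DHT Slc38a4 was again first, at 90.0 ± 7.65 per kb, above Slc38a3 at 59.6 ± 6.64 in every library. The lower ranks kept Slc7a2, Slc3a2, Slc1a5, Slc7a8, Slc7a5 and Slc7a1 below Slc38a10 by mean in all 3 groups.

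The per kb levels of the 10 members summed to 191, 210 and 200 in control libraries, 157, 161 and 157 in ORX and 244, 270 and 251 in ORX+DHT. Slc38a4, chosen on its values in these libraries, is part of this sum. The order of the groups is thus partly built in and is no result on the other members. Slc38a4 made up 27.6%, 30.8% and 25.3% of that sum in controls, 14.2%, 20.3% and 15.5% in ORX and 35.6%, 36.5% and 33.6% in ORX+DHT. Slc38a3 made up 26.3 ± 1.80%, 29.3 ± 0.373% and 23.3 ± 1.44% (SD, n = 3). Shares sum to a whole, so the share of any other gene, steady or not, can move when Slc38a4 does.

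**Figure D3:**
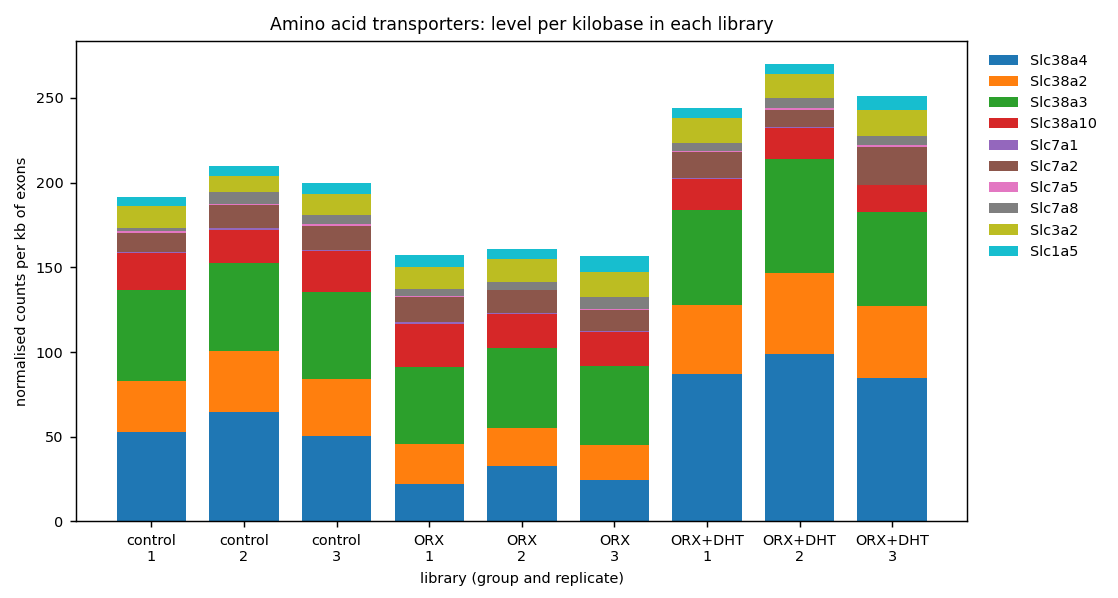
Normalised counts per kb of exon for the 10 transporters, stacked for each of the 9 libraries. The stack is 157 to 161 in ORX, 191 to 210 in control and 244 to 270 in ORX+DHT, and the Slc38a4 segment at the base ranges from 22.3 to 98.7. Slc38a4 was chosen on these values, so the order of the stacks is partly built in.

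Ratios of reads within a library do not depend on scaling. The ratio of Slc38a4 to Slc38a2 reads was 0.845, 0.868 and 0.731 in controls, 0.462, 0.697 and 0.558 in ORX and 1.02, 0.993 and 0.950 in ORX+DHT. This ratio was lower in each ORX library, and higher in each ORX+DHT library, than in any control library. Slc38a4 was chosen on its values in these libraries, so this order is partly built in and carries no test. The ratio of Slc38a2 to Slc38a3 averaged 1.06 ± 0.115, 0.806 ± 0.0511 and 1.24 ± 0.0509 in control, ORX and ORX+DHT. The ratio of Slc38a2 to Slc38a10 averaged 2.10 ± 0.326, 1.41 ± 0.157 and 3.498 ± 0.313. For the last 2 ratios, ORX did not overlap with control or with ORX+DHT, and the exact two-sided permutation p was 0.1 in each of the 4 comparisons (0.1 after Benjamini-Hochberg adjustment), the smallest that 3 libraries against 3 allow.

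Genes around Slc38a4 were examined to see whether the difference extended along the chromosome. Within 1 Mb of its start the tables hold 13 protein-coding genes besides Slc38a4 and Slc38a2, of which 6 were tested. Their starts lie 595 to 789 kb away. Of the genes closer than that, only Slc38a2 could be tested, since Pced1b and Amigo2 at 191 kb and Slc38a1 at 413 kb were too low. The 6 therefore do not describe the nearest surroundings of Slc38a4. Limma called 0 of the 6 in each comparison, with 1, 0 and 2 at an unadjusted p under 0.05 in the order above. In ORX+DHT against ORX their log2 differences ran from -0.18 (Rpap3) to 0.34 (Rapgef3), with a median of 0.05. The others tested were Arid2, Scaf11, Hdac7 and the haem carrier Slc48a1.

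Slc48a1 lay lower after castration, with a mean of 118 ± 22.5 normalised counts in the controls against 85.9 ± 7.82 after it, a log2 difference of -0.44 that did not pass after adjustment, and differed by 0.05 between ORX+DHT and ORX. Slc38a1, the third carrier of the cluster, whose start lies 413 kb from that of Slc38a4, averaged 0.747 normalised counts in controls and 2.32 in ORX+DHT and was too low to test. Pced1b, Amigo2, Endou, Vdr, Tmem106c and Col2a1 were also below the minimum mean.

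**Figure D4:**
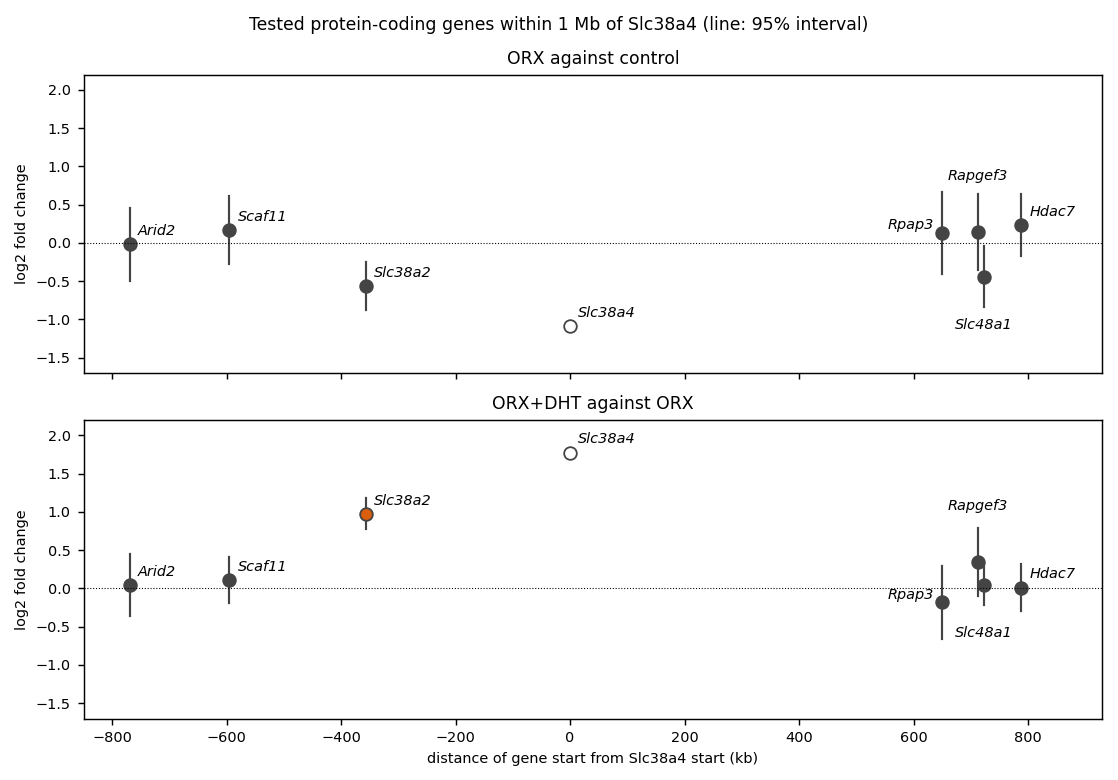
Log2 fold changes of the tested protein-coding genes within 1 Mb of Slc38a4 against the distance of their starts from its start in kb, for ORX against control (top) and ORX+DHT against ORX (bottom), with 95% intervals from limma. In the lower panel Slc38a4 (1.78, open circle, no interval) and Slc38a2 (0.98, orange, adjusted p under 0.05) lie above the other 6, which range from -0.18 to 0.34.

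Among 3794 genes with a joint mean of at least 50, the 6 whose log2 levels followed Slc38a4 most closely over the 9 libraries were Smtnl2 (Pearson r = 0.99), St3gal5 (0.98), Rab12 (0.98), Slc38a2 (0.97), Cdk19 (0.97) and Amd1 (0.96). Slc38a2 was thus 4th of all these genes. The 9 libraries share the group differences, so r describes the pattern and has no p. Amd1, which makes an enzyme of polyamine synthesis, had a wider range than Slc38a4, with means of 662, 173 and 928 normalised counts in control, ORX and ORX+DHT. Amd1 has a near-identical copy, and how reads shared by both were counted is not given in the sources used here. Of the other carriers, Slc38a3 ranked 38th (r = 0.90), the aromatic amino acid carrier Slc16a10 125th (0.80), the taurine carrier Slc6a6 251st (0.68), Slc7a2 1772nd (0.10) and Slc38a10 3664th (-0.68).

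A list drawn up as further plasma membrane carriers of amino acids held 38 genes, although the place of each in the cell was not checked. Of these, 26 were in either table and 5, 6 and 5 were tested in the 3 comparisons. Limma called 0 of them in each, with 1, 4 and 0 at an unadjusted p under 0.05, and edgeR and DESeq2 called 0 as well. Slc43a1, a carrier of leucine and its relatives, stood at 27.5, 29.9 and 23.8 normalised counts in the controls, 44.2, 42.6 and 38.9 in ORX and 28.4, 31.9 and 30.6 in ORX+DHT. The ORX libraries were above all 6 others, the reverse of the place of Slc38a4. Its log2 difference was 0.62 for ORX against control (95% interval 0.17 to 1.06, limma adjusted p = 0.617) and -0.45 for ORX+DHT against ORX (95% interval -0.83 to -0.08, limma adjusted p = 0.212). Slc43a1 is named after its values were seen, as are the other 3 with an unadjusted p under 0.05 between ORX+DHT and ORX. Slc6a6 and Slc16a10 differed by 0.32 and 0.33 (limma adjusted p = 0.171 and 0.208), and Slc43a2, a further carrier of leucine and its relatives, by -0.53 (limma adjusted p = 0.241). Of 7 symbols listed for carriers of the lysosomal membrane, some of them names of the same gene, 5 were in the tables. Limma, edgeR and DESeq2 called 0 of these in any comparison, also with 0 at an unadjusted p under 0.05 in limma.

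Genes of amino acid metabolism were lower with dihydrotestosterone in 4 cases. A list of 22 genes held enzymes that make, use or break down amino acids and regulators of these enzymes, and 17 were tested. For ORX+DHT against ORX limma called 4 lower and 0 higher, where 1.7% of all genes tested were called lower and 2.38% higher. The median log2 difference of the 17 was -0.08 against 0.01 over all genes. Dbt and Bckdhb encode subunits of the complex that commits branched-chain amino acids to breakdown. Dbt stood at 43.7, 70.8 and 62.6 normalised counts in the controls, 72.6, 64.0 and 90.2 in ORX and 31.4, 44.5 and 40.5 in ORX+DHT. Its log2 level fell by 0.95 from ORX to ORX+DHT (SE 0.18, limma adjusted p = 0.00308).

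Bckdhb stood at 36.2, 37.6 and 47.7 normalised counts in the controls, 57.9, 53.7 and 54.6 in ORX and 26.3, 31.9 and 31.6 in ORX+DHT. Here the 3 groups did not overlap, with ORX highest. The log2 level of Bckdhb fell by 0.87 from ORX to ORX+DHT (SE 0.17, limma adjusted p = 0.00452). Both genes passed in every alternative that tested them, with limma, edgeR or DESeq2 adjusted p up to 0.0410 for Dbt and 0.0412 for Bckdhb.

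Bcat2, the mitochondrial enzyme that takes the amino group from branched-chain amino acids, fell by 0.59 on the log2 scale from ORX to ORX+DHT (limma adjusted p = 0.0144). Glul, which makes glutamine from glutamate, fell by 0.50 (limma adjusted p = 0.0251). Both calls were lost with all 9 libraries in 1 fit (limma adjusted p = 0.0878 and 0.362) and without ORX replicate 2, ORX+DHT replicate 1 or ORX+DHT replicate 2 (limma adjusted p = 0.0528 to 0.0953 for Bcat2 and 0.0569 to 0.145 for Glul). The call of Glul was also lost without ORX replicate 3 (limma adjusted p = 0.110) and that of Bcat2 in DESeq2 (adjusted p = 0.0873).

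The third subunit of the complex, Bckdha, differed by -0.25 (limma adjusted p = 0.608), its inhibitory kinase Bckdk by -0.08 (limma adjusted p = 0.810) and its phosphatase Ppm1k by 0.15 (limma adjusted p = 0.835). In the other 2 comparisons limma called 0 of the 17, with 2 at an unadjusted p under 0.05 in each, and edgeR and DESeq2 called 0 as well. Without control library 1 the count for ORX+DHT against control was 1.

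**Figure D5:**
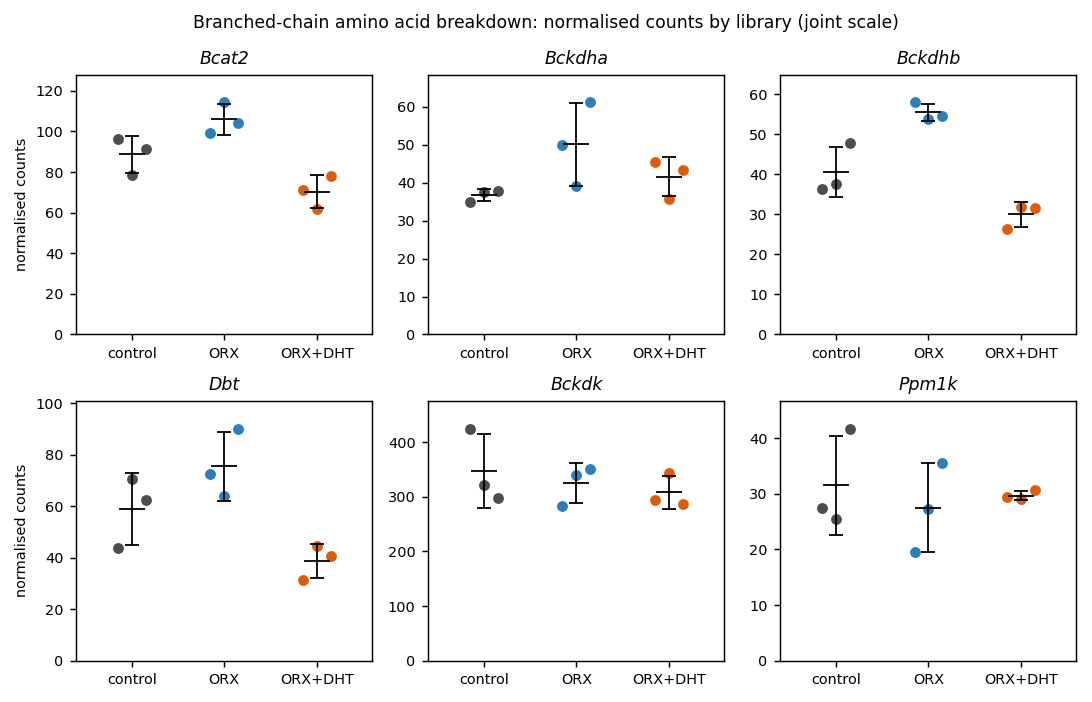
Normalised counts of 6 genes of branched-chain amino acid breakdown in each library on the joint scale (axes start at 0 and differ between panels), with the group mean ± SD (n = 3). Bckdhb and Dbt stand highest by mean in ORX and lowest in ORX+DHT, whereas Bckdk and Ppm1k overlap between groups.

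Slc38a2 belongs to the genes that the transcription factor ATF4 raises when amino acids are scarce, and 29 other genes of that response were listed. Of the 17 tested for ORX+DHT against ORX, limma called 2 higher and 1 lower, where 2.38% of all genes tested were called higher and 1.7% lower. The median log2 difference of the 17 was 0.10, against 0.01 over all genes. Vldlr, a lipoprotein receptor, rose by 0.56 on the log2 scale (limma adjusted p = 0.000638), and Eif4ebp1, a repressor of translation initiation, by 0.86 (limma adjusted p = 0.0129). Chac1, which degrades glutathione, passed in the opposite direction at -1.59 (limma adjusted p = 0.0453), although its groups overlapped, at 63.1 to 160 normalised counts in the ORX libraries and 12.2 to 77.1 in ORX+DHT. Leaving out a library moved the log2 difference of Chac1 between -2.20 and -0.91, the latter without ORX+DHT replicate 1. Against control, Chac1 differed by 1.58 in ORX (limma adjusted p = 0.405) and by -0.006 in ORX+DHT (limma adjusted p = 0.991), with overlapping groups in both.

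Atf4 itself differed by 0.18 between ORX+DHT and ORX (limma adjusted p = 0.395), and Asns, a defining target, averaged under 7 normalised counts in each group and was not tested. The list thus held genes in both directions beside Slc38a2. The count of 3 was 0 with all 9 libraries in 1 fit and 1 without ORX replicate 1 or ORX+DHT replicate 1. Eif4ebp1 did not pass without either of those libraries (limma adjusted p = 0.0557 and 0.0839). The call of Chac1 was lost in DESeq2 (adjusted p = 0.791), without ORX replicate 1 or 3 or ORX+DHT replicate 1 or 2 (limma adjusted p = 0.103 to 0.204), and with a pseudocount of 0.1, a minimum mean of 50 or quantile normalisation (limma adjusted p = 0.0501 to 0.0725). For ORX against control and ORX+DHT against control limma called 0 of these genes, with 1 and 2 at an unadjusted p under 0.05, and edgeR and DESeq2 called 0; without control library 2 the first count was 1.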

How the data were processed

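Libraries of polyA RNA were made with a directional kit, per the labels' protocols. The submitters' processing notes name Trim Galore 0.6.7, HISAT2 2.2.1, featureCounts 2.0.1, DESeq2 1.36.0 and build GRCm38; the annotation, the strand setting of the counting and each tool's options are not given in the sources used here. The authors deposited tables of normalised counts, a signal on the scale of reads divided by a factor for each library, in which 100% of values were whole multiples of the value of a read (tolerance 0.1). Reads were recovered from these steps, 1340209 to 1682235 per library, and the ORX reads were the same in both tables. With so few reads, genes under about 10 counts have little precision.

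The first 2 comparisons used the deposited values of their own table. ORX+DHT against control, the levels and the markers used the 14300 shared genes, rescaled with median-of-ratios factors. The test was limma 3.58.1 in R 4.3.3 (lmFit, eBayes with trend, two-sided) on log2(value + 1), over genes with a mean of at least 10 in the libraries compared, with Benjamini-Hochberg adjustment over all genes tested and a threshold of 0.05. Fold changes on this scale understate changes of low genes. The scripts were tested on simulated data. Alternatives were pseudocounts of 0.1 and 10, filters of no minimum and of a mean of 50, scaling by TMM and by quantiles, a single fit of the 9 libraries together, a block for the replicate number, edgeR 4.0.16 quasi-likelihood and DESeq2 1.42.0 on recovered reads, and each library left out.

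The members and lists were chosen with earlier results of these data known. Genes named are the 10 members, list genes that limma called, the 6 genes most like Slc38a4, tested or listed protein-coding genes within 1 Mb, and those said to be named after their values were seen; Bckdha, Bckdk, Ppm1k, Atf4 and Asns are named as partners or regulators, also after their values were seen. Gene IDs were matched to the GENCODE annotation of GRCm38 for 14964 of 14971 genes. Of the marker lists, endothelial genes summed to 664 to 906 normalised counts over the 9 libraries, macrophage genes to 35 to 87, erythroid genes to 88 to 252 and satellite cell genes to 6 to 17.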

Additional observations from a re-analysis of the deposited data

How the results depend on the processing

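The direction of Slc38a2 held in all 16 alternatives of each of the 3 comparisons. That of Slc38a4 held as well, but Slc38a4 was chosen on its values in these libraries, so its direction was largely set in advance. For ORX against control, the number of members other than Slc38a4 that were called ranged from 0 to 1 when a library was left out; the 1 was Slc38a2 without control replicate 1. For ORX+DHT against ORX it was 2 with a pseudocount of 10, 2 with a minimum mean of 50 and 2 with the replicate number as a block, since Slc38a3 was then called (limma adjusted p = 0.0114 with the block). Same-numbered libraries deviated from their group means with correlations of 0.0633, 0.0681 and 0.153 in that comparison and -0.168 to 0.0614 in the other 2, so the labels and values do not pair the libraries; with the block the count of all genes called was 571 instead of 358, and it changed no other call of a member. Over all genes, the counts of 5 and 3 called for ORX against control and ORX+DHT against control became 28 and 13 in DESeq2, 23 and 11 with all 9 libraries in 1 fit, and 51 and 66 without control replicate 1; no filter gave 16 for the first and quantile normalisation 6 for the second, and leaving out a library gave 1 to 51 and 0 to 66. The 358 became 124 with all 9 libraries in 1 fit, 224 in DESeq2 and 223 without ORX+DHT replicate 1. Uncalled members changed sign 15 times over all alternatives. Depth limits Slc7a1 and Slc7a5, with at most 13 reads in a library.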

Other observations

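Slc38a4 is known as an imprinted gene, expressed from the paternal allele in mouse placenta, and 21 other imprinted genes were listed beside it. For ORX+DHT against ORX, 9 were tested and limma called 2 lower and 0 higher, where 1.7% of all genes tested were called lower and 2.38% higher. Their median log2 difference was -0.10, against 0.01 over all genes. Grb10, an adaptor that dampens insulin signalling, stood at 121, 107 and 85.2 normalised counts in ORX and 50.7, 60.9 and 58.3 in ORX+DHT, and its log2 level fell by 0.86 (limma adjusted p = 0.00183). Peg3, a zinc finger protein, stood at 124, 87.0 and 112 in ORX and 56.7, 83.1 and 52.4 in ORX+DHT and fell by 0.75 (limma adjusted p = 0.0167). Both lay opposite to Slc38a4 in this comparison. With all 9 libraries in 1 fit neither passed (limma adjusted p = 0.0948 and 0.0796), and Peg3 did not pass without ORX replicate 1, ORX+DHT replicate 1 or ORX+DHT replicate 3 (limma adjusted p = 0.0897, 0.0969 and 0.0745). In the other 2 comparisons limma, edgeR and DESeq2 called 0 of these genes, with 2 and 1 at an unadjusted p under 0.05 in limma.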
